A study of Arabidopsis thaliana with 18 samples.

Results

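The genes described here encode the proteins of the cytosolic ribosome in Arabidopsis rosette leaves. They were taken by name: nuclear genes of the 5 chromosomes called RPL (large subunit), RPS (small subunit) or RPP (the acidic proteins of the large subunit's stalk), followed by a number and paralogue letters. The rule found 174 of the 27655 genes listed in each file. Of these, 162 had at least 20 reads over the 18 libraries and were tested: 83 RPL, 66 RPS and 13 RPP genes. Of the 12 others, RPL22A, RPL27AA, RPL30A, RPL37AB, RPL13C, RPL8B and RPS15B had no read, RPS15C and RPS15E had 1 read, RPS15AC 4, RPS15F 5 and RPS23A 11. At these depths a gene without a read can still have had up to 3 reads' worth of RNA in a library, which is 0.636 CPM (the read count scaled to the same fixed library total in every sample) in the shallowest one. The genes were looked up by locus in the RefSeq annotation of the TAIR10.1 assembly, which held all 174 with the same gene length. RPP2A is annotated there as a receptor-type protein and RPL3B as a plastid ribosomal protein L3. Neither passed the test in any comparison below, so the counts of called genes are the same over the 160 tested genes without them.

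The ribosome joins ribosomal RNA with many kinds of protein, and in plants nearly every one of them is encoded by several paralogous genes. Their mRNAs are made in bulk in growing tissue, and their transcription and translation are tied to cell growth through the TOR kinase. Stresses that stop growth are known to lower them. JAR1 makes the active jasmonate, jasmonoyl-isoleucine, by joining jasmonic acid to isoleucine.

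The study compared 3 genotypes under drought and with water, with 3 libraries in each of the 6 groups. The jar1-11 line is a JAR1 knockdown (SALK_034543). The JAR1-OE line overexpresses the JAR1.1 form, counted in the files as YFP-JAR1. The reference was wild-type Col-0 (WT). Plants received water for 18 days. Drought plants then had none for up to 14 days while controls stayed watered, and rosette leaves were taken from all at day 32. The sources used here do not give the promoter of the transgene or the number of independent lines, and do not say whether the replicates were separate plants or pools. The p-values below therefore measure the spread between these libraries.

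Reads of 50 bases were sequenced from the 3′ ends of mRNAs and counted per gene, 4716155 to 9506727 per library. In jar1-11 the JAR1 counts were lower than in WT under drought by 3.59 ± 0.27 on the log2 scale (SE, adjusted p = 6.57e-07) and with water by 2.14 ± 0.24 (adjusted p = 5.93e-04). In JAR1-OE the counts listed as JAR1 differed from WT by -0.01 ± 0.21 under drought and -0.12 ± 0.22 with water and did not pass the test. YFP-JAR1 reads occurred in the 6 JAR1-OE libraries, 26 to 558 each, and in none of the other 12. The 5 leaf mesophyll markers (RBCS1A, RCA and others) were read in every library, and the 4 seed storage markers were at or near 0. WT control 1 stood apart from its group mates among the ribosomal protein genes. Their log2 levels differed from the mean of its mates with an SD of 0.501 over the 162 genes, against 0.130 to 0.272 in the other 17 libraries. Counts of called genes in comparisons that use it are given with and without it.

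Short promoter elements are known from plant ribosomal protein genes: the telo box, AAACCCTA, and site II, TGGGCC or TGGGCT. Both were searched on both strands in the 250 bases upstream of each annotated gene start in TAIR10.1. A palindromic TGGGCCCA counts on each strand. A telo box was present in 38 of the 174 genes (21.8%), against 4.49% of 27443 protein-coding genes. Site II was present in 114 (65.5%), against 19.2%. Both stood together in 17.2% of the ribosomal protein genes, against 1.36%, and 29.9% had neither, against 77.7%. The 150 bases before the start are printed for paralogues whose share of family reads moved under drought. They are also printed for RPL19C, whose level was higher under drought in all 3 genotypes. Capitals mark a telo box or site II on either strand. RPP3A lies downstream of chr4:13160566-13160715 (minus strand) and RPP3B of chr5:23207962-23208111 (minus). RPS7A follows chr1:18061303-18061452 (minus), RPS7B chr3:541558-541707 (plus) and RPS7C chr5:5268271-5268420 (plus). RPL36A follows chr2:15775375-15775524 (minus), RPL36B chr3:19915067-19915216 (minus) and RPL36C chr5:532908-533057 (plus), and RPL19C follows chr4:980699-980848 (minus).
RPP3A: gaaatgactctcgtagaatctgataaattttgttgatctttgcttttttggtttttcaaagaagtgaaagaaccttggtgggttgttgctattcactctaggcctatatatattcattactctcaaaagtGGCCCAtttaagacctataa
RPP3B: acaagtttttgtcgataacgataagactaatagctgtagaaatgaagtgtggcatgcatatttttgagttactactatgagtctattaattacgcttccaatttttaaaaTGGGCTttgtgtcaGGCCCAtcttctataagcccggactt
RPS7A: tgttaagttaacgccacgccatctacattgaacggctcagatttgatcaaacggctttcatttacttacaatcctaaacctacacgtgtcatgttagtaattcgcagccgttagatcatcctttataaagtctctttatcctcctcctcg
RPS7B: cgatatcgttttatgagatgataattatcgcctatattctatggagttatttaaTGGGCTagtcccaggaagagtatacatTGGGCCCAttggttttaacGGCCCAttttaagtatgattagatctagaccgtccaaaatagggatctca
RPS7C: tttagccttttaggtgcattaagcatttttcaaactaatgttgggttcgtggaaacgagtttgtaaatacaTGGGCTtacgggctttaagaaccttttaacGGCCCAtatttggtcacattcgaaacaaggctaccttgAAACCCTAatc
RPL36A: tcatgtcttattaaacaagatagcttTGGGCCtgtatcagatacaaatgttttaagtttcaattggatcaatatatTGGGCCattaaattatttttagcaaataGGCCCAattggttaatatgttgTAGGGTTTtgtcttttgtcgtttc
RPL36B: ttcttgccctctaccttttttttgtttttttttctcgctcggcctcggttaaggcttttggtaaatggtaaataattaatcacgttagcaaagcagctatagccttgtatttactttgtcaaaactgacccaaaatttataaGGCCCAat
RPL36C: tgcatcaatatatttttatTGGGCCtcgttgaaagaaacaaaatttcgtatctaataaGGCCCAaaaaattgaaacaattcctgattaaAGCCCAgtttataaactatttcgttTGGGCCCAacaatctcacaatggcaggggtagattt
RPL19C: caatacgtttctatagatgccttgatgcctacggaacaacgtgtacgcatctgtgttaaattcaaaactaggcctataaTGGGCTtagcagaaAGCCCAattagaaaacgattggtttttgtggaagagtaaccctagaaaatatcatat

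Over the whole window of 250 bases RPS7A had neither element, RPS7B had 4 site II matches and RPS7C had 1 telo box and 2 site II matches. RPL36A had 1 telo box and 3 site II matches, RPL36B 1 site II match and RPL36C 5. RPP3A had 1 site II match and RPP3B 2. Among the 89 genes lower under drought in jar1-11, 20.2% had a telo box and 61.8% site II, against 17.8% and 71.2% of the other 73 tested genes. These matches describe letters only.

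Ribosomal protein mRNAs made up a smaller part of the leaf's reads under drought in jar1-11 and in JAR1-OE. In jar1-11 the 174 genes together took 2.13%, 2.08% and 2.29% of reads in the drought libraries, against 2.94%, 3.11% and 3.04% in the controls. In JAR1-OE they took 2.5%, 2.76% and 2.68% under drought, against 4.0%, 3.12% and 3.34% in the controls. Drought and control libraries did not overlap in either line. In WT they took 3.13%, 2.59% and 2.62% under drought, against 2.43%, 3.24% and 2.78% with water, and the groups overlapped. The shares are a description, with no test. They are shares of the RNA of whole leaves, in which fewer cells of a type and less RNA per cell cannot be told apart.

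**Figure D1:**
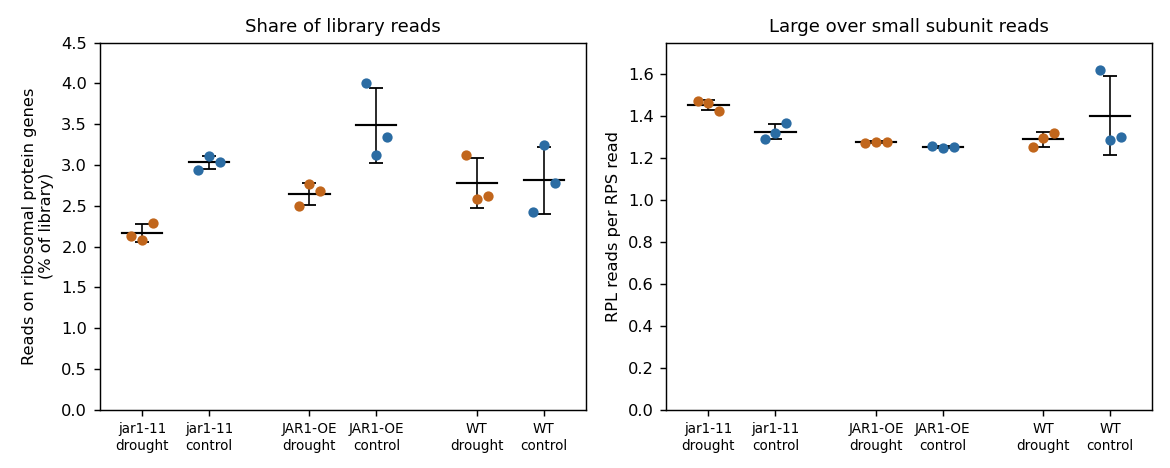
Left, reads on the 174 ribosomal protein genes as a percent of all reads of each library; right, RPL reads divided by RPS reads. Points are the 3 libraries of a group, bars their mean and SD. The jar1-11 and JAR1-OE drought libraries lie below their controls on the left, and WT control 1 stands at 1.62 on the right.

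The balance of large over small subunit reads moved less. RPL reads per RPS read were 1.42 to 1.47 in jar1-11 under drought, against 1.29 to 1.37 in its controls, and 1.27 to 1.28 in JAR1-OE under drought, against 1.25 to 1.26 in its controls. In WT they were 1.25 to 1.32 under drought. WT control 1 had 1.62, against 1.28 and 1.30 in WT control 2 and 3.

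Levels below are CPM scaled by the TMM method, and differences are log2 fold changes ± SE. Adjusted p-values come from edgeR's quasi-likelihood F-test with Benjamini-Hochberg adjustment over all 19752 genes tested, at a threshold of 0.05. The tested ribosomal protein genes had a median level of 141 CPM (0.207 to 788), against 11.9 CPM over all genes tested. At least 100 CPM was reached by 103 of them, and 9 were under 10 CPM. These 9 were RPL11A, RPL27A, RPP0A, RPP2E, RPS11B, RPS15AB, RPS15AE, RPS27AA and RPS8B. Reads were not scaled by length, because each transcript gives reads at its 3′ end only. Windows of 50 bases in the last 300 bases of the annotated transcript occurred nowhere else among the transcripts for 158 of the 162 genes, and the lowest share of such windows was 89.6%, in RPL6C. The strand setting of the authors' counting was not given. The annotated spans of 47 tested genes overlapped another gene, 37 of them on the other strand, and for these reads of the neighbour cannot be told apart. RPP3A, RPS7A, RPS7B, RPS7C, RPL6A, RPL7A and RPL19C have such a neighbour on the other strand, and RPS17C and RPP0B on the same strand.

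In jar1-11 most ribosomal protein genes fell under drought. Of the 162, 89 were lower and 8 higher, 59.9% in all, with a median change of -0.46. Over all genes 53.5% were called, 27.7% lower and 25.9% higher, with a median of -0.03. The lean to lower levels held in each class: 46 of 83 RPL, 37 of 66 RPS and 6 of 13 RPP genes were lower, and 5, 3 and 0 were higher. The markers of mesophyll cells moved at the same time: their summed level was 463 to 702 CPM under drought, against 5206 to 6179 CPM with water, with 5 of 5 lower. The 8 mitosis markers summed to 1.8 to 3.33 CPM, against 7.63 to 11.5 CPM, with 5 of 8 lower and CYCB1;2, CYCA1;1 and TPX2 without a read under drought. The part of these shifts in the counts above was not tested.

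The stalk of the large subunit, which recruits the factors that drive translation, held the steepest fall. RPP3A, a P3 protein found in plants only, had 21.8, 20.2 and 23.1 CPM in jar1-11 under drought, against 149, 182 and 148 CPM with water. The drought levels lay far under the controls, a change of -2.88 ± 0.22 (adjusted p = 2.07e-09). Its paralogue RPP3B had 175, 198 and 197 CPM, against 255, 238 and 197 CPM, and did not pass the test. RPP2B, a P2 protein, had 433, 406 and 389 CPM, against 728, 822 and 760 CPM (-0.91 ± 0.16, adjusted p = 9.69e-05). RPP1C had 122, 118 and 130 CPM, against 255, 250 and 197 CPM (-0.92 ± 0.19, adjusted p = 4.85e-04). RPP0B, which anchors the stalk, and RPP1A, both among the 3 genes with the most reads, did not pass the test in jar1-11: RPP0B averaged 661 ± 58.1 CPM under drought and 830 ± 130.8 CPM with water (SD, n = 3 each).

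Small subunit genes fell too, RPS17C the most. RPS17C had 13.5, 9.21 and 9.36 CPM in jar1-11 under drought, against 45.3, 53.1 and 36.6 CPM with water (-2.07 ± 0.21, adjusted p = 1.33e-07). RPS7C had 70.3, 75.2 and 82.8 CPM, against 237, 276 and 226 CPM (-1.70 ± 0.16, adjusted p = 3.23e-08). RPS10A, whose protein sits where mRNA enters the ribosome, had 60.4, 50.6 and 58.2 CPM, against 155, 169 and 176 CPM (-1.57 ± 0.14, adjusted p = 1.90e-08). In all of these the 2 groups were apart. RPS11C changed by -1.46 ± 0.20, RPS16A by -1.30 ± 0.16 and RPS2A, another protein of the mRNA entry site, by -1.12 ± 0.22. RPS21B changed by -0.88 ± 0.14 and RPS25E by -0.57 ± 0.15. Among large subunit genes RPL35AA changed by -1.83 ± 0.30, RPL9D by -1.41 ± 0.21, RPL10AA, of the stalk near the tRNA exit, by -1.06 ± 0.14, and RPL36A by -1.0 ± 0.19. RPL22C changed by -0.93 ± 0.13 and RPL30B by -0.80 ± 0.23. The adjusted p-values of these genes ran from 1.81e-06 (RPS16A) to 0.00612 (RPL30B).

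The 8 genes that rose in jar1-11 were RPL10C, RPL19C, RPL27AB, RPL36B, RPL39B, RPS25B, RPS27A and RPS9C. RPL10C, listed in RefSeq as the senescence-associated gene SAG24, rose most, with 274, 453 and 240 CPM under drought, against 133, 148 and 172 CPM with water (1.10 ± 0.21, adjusted p = 1.65e-04). The drought libraries were all higher, and replicate 2 was well above the others. RPS9C, also of the mRNA entry site, had 45.4, 39.4 and 42.2 CPM, against 18.8, 25.2 and 31.5 CPM (0.76 ± 0.20, adjusted p = 0.00380). RPS27A had 50.9, 64.0 and 42.0 CPM, against 29.5, 33.3 and 35.1 CPM (0.69 ± 0.21, adjusted p = 0.00895), a call that was lost without jar1-11 drought 2 (0.53).

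JAR1-OE leaves also had lower ribosomal protein mRNA under drought, in a narrower shift. Of the 162 genes 89 were lower and 2 higher (56.2%), with a median of -0.53, where 26% of all genes were called, 13.6% lower and 12.4% higher. By class, 48 RPL, 35 RPS and 6 RPP genes were lower. Among genes at 10 CPM or above, RPS17C and RPL30B fell most. Genes under 10 CPM were left out of this ranking. RPS17C had 18.3, 19.6 and 18.6 CPM under drought, against 61.4, 58.4 and 56.6 CPM with water (-1.64 ± 0.20, adjusted p = 6.54e-06). RPL30B had 68.3, 50.9 and 73.9 CPM, against 199, 158 and 165 CPM (-1.43 ± 0.23, adjusted p = 1.15e-04). RPL30 proteins are known in yeast to limit the splicing of their own mRNA. RPS21B and RPL9D changed by -1.07 ± 0.14 and -1.07 ± 0.21. RPP3A had 96.8, 106 and 81.1 CPM, against 169, 163 and 151 CPM, a smaller change than in jar1-11 (-0.77 ± 0.20, adjusted p = 0.00750). The 2 genes that rose were RPS9C, with 21.6, 27.7 and 27.0 CPM, against 10.3, 16.4 and 15.4 CPM (0.86 ± 0.21, adjusted p = 0.00495), and RPL19C (0.43 ± 0.13, adjusted p = 0.0189). The call of RPL19C was lost without JAR1-OE control 3 or drought 3. Mesophyll markers summed to 4152 to 5362 CPM under drought, against 10165 to 12351 CPM, with 2 of 5 lower. Most of that sum was RBCS1A, which averaged 3051 CPM under drought and 9611 CPM with water. LHCB2.1 (0.33 ± 0.25) and LHCB2.2 (0.67 ± 0.33) had values in the other direction that did not pass the test. Mitosis markers summed to 18.7 to 33.2 CPM, against 29.5 to 44.6 CPM, with 0 of 8 passing. Flower markers summed to 9.82 to 33.6 CPM, against 1.03 to 5.40 CPM. Their part was not tested. Without JAR1-OE control 1, which had the highest share of ribosomal protein reads, 56 genes were called, 54 of them lower.

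In WT the response was mixed and smaller. Of the 162 genes 41 were lower and 9 higher (30.9%), with a median of -0.14, where 35.4% of all genes were called, 18.8% lower and 16.6% higher. By class, 24 RPL, 13 RPS and 4 RPP genes were lower and 5 RPL and 4 RPS genes higher. RPP3A had 74.6, 51.4 and 39.5 CPM under drought, against 221, 142 and 155 CPM with water (-1.65 ± 0.21, adjusted p = 3.25e-06), and RPS17C had 20.04, 16.3 and 13.9 CPM, against 31.8, 55.9 and 41.7 CPM (-1.37 ± 0.21, adjusted p = 3.05e-05). RPS2A changed by -0.98 ± 0.21 and RPL36A by -0.87 ± 0.18, and in both WT control 1 was the highest library. Without that library they changed by -0.68 and -0.61 and kept their calls. Of the rises, RPL18AC had 73.2, 59.0 and 90.6 CPM, against 38.0, 51.8 and 39.1 CPM (0.79 ± 0.20, adjusted p = 0.00378). RPL19C, which forms a bridge between the subunits, had 239, 241 and 261 CPM, against 124, 163 and 143 CPM (0.78 ± 0.13, adjusted p = 9.18e-05). RPL36B had 366, 348 and 413 CPM, against 248, 237 and 209 CPM (0.70 ± 0.14), and RPS25B had 147, 118 and 148 CPM, against 99.9, 91.8 and 72.7 CPM (0.65 ± 0.15). RPL19A, RPL39B, RPS2C, RPS3C and RPS4A completed the 9. Mesophyll markers summed to 1591 to 2076 CPM under drought, against 6097 to 7491 CPM, with 5 of 5 lower. Flower markers summed to 34.7 CPM in WT drought 1 and to 0.127 and 0.308 CPM in the other drought libraries, and their part was not tested. Without WT control 1, 59 genes were called (50 lower and 9 higher) and the median was -0.22, and without WT control 2 the median was -0.01. Without WT drought 2 or 3 the count was 33 each, and a fit of the 2 WT groups alone gave 25.

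**Figure D2:**
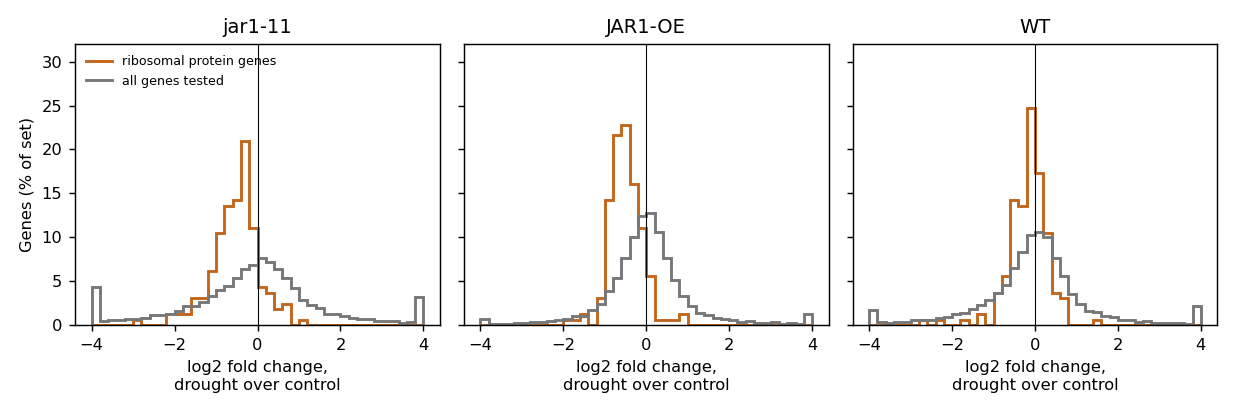
Distribution of the log2 fold change of drought over control in each genotype, as a percent of the 162 ribosomal protein genes (orange) and of all 19752 genes tested (grey), in bins of 0.2; the end bins hold all values beyond them. The orange curve is centred at -0.46 in jar1-11, -0.53 in JAR1-OE and -0.14 in WT, and the grey one near 0 in each.

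Of the 162 genes 30 (18.5%) were lower in all 3 genotypes, where 8.11% of all genes were. Of these, 15 kept the call in each genotype with every library left out in turn, among them RPP3A, RPS17C, RPS16A, RPS21B, RPL9D, RPS17A, RPS17B, and RPP0A and RPP1B of the stalk. RPS7C, RPL10AA, RPL22C and RPS6A, whose protein is the target of the S6 kinases, were among the 15 that lost it in at least 1 of these fits. With the WT calls taken without WT control 1, 39 genes were lower in all 3, where 8.34% of all genes were, and 29 of the 30 were among them. RPL19C was higher in all 3, where 6.72% of all genes were. Without WT control 1 RPS9C was too, where 6.9% of all genes were. Of the 162 genes 0 were called in opposite directions in different genotypes, and the part of all genes called so was not counted. Of the 162 genes 117 were lower in at least 1 genotype, 13 higher in at least 1, and 32 called in none, among them RPP1A, RPS21C, RPS7A and RPL7A. Over all genes 33.8% were lower in at least 1, 32.7% higher in at least 1 and 34.9% called in none. Without WT control 1 the members counted 118, 12 and 32. Across the 162 genes the drought changes of jar1-11 and WT had a Pearson r of 0.745 (0.739 over all genes), those of JAR1-OE and WT 0.505 (0.702), and those of JAR1-OE and jar1-11 0.478 (0.581). Each pair rests on separate libraries, and genes are not independent replicates. In jar1-11 the genes lower under drought were 54.4% of the 103 with at least 100 CPM and 55.9% of the 59 others.

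**Figure D3:**
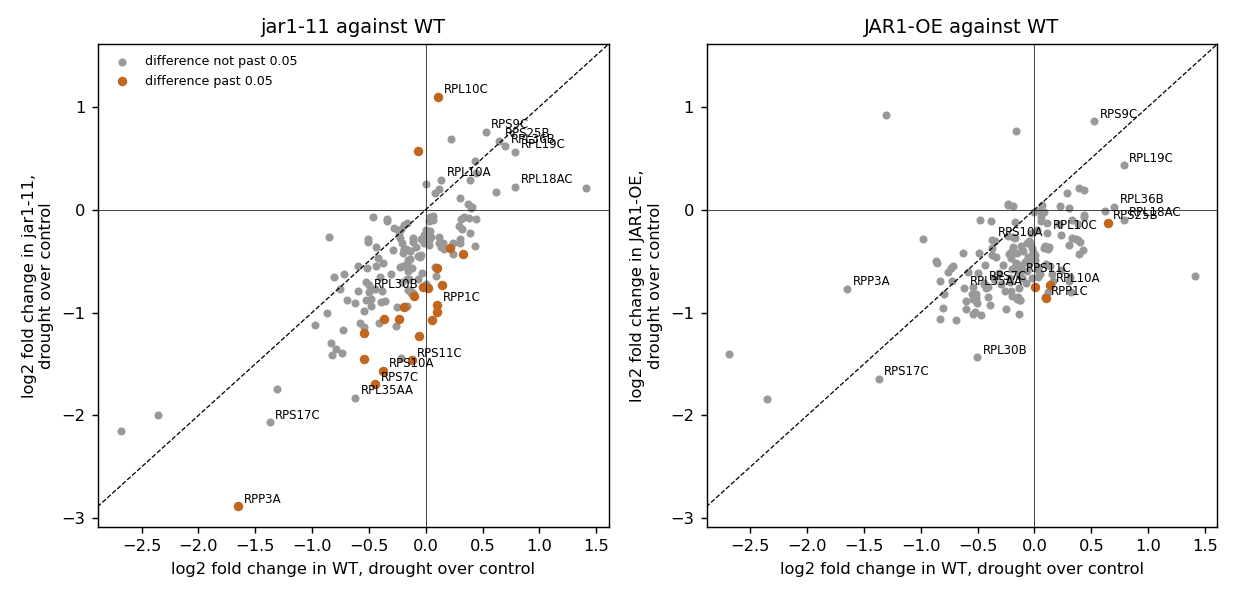
Log2 fold change of drought over control in jar1-11 (left) and JAR1-OE (right) against that in WT, 1 point per ribosomal protein gene. Orange points differ between the genotypes by the interaction test, 22 on the left and 4 on the right, and the dashed line marks equal change. Most points lie under the line in both panels, with medians of the difference of -0.38 and -0.36.

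The difference between genotypes was tested directly. The drought change of jar1-11 was more negative than that of WT in 20 genes and more positive in 2 (13.7% of all genes were called, 8.01% lower and 5.72% higher), with a median difference of -0.38 against -0.06 over all genes. RPS11C differed by -1.34 ± 0.28 (adjusted p = 0.00514), RPS7C by -1.25 ± 0.22 (adjusted p = 0.00180), RPP3A by -1.23 ± 0.29 (adjusted p = 0.00977), RPS10A by -1.19 ± 0.19 (adjusted p = 0.00116) and RPP1C by -1.02 ± 0.27 (adjusted p = 0.0185). RPS10A changed by -1.57 ± 0.14 in jar1-11 and by -0.37 ± 0.14 in WT, where it had 127, 109 and 103 CPM under drought, against 146, 165 and 128 CPM with water. The 2 genes in the other direction were RPL10C (0.98 ± 0.29, adjusted p = 0.0298) and RPL27AB (0.64, adjusted p = 0.0462). The mesophyll markers differed the same way, with 3 of 5 more negative in jar1-11 (RBCS1A, -1.90, RCA, -1.03, and GDCH1, -0.89), and 1 of 8 mitosis markers did. Their part was not tested. The count rested on several libraries, and 8 of the 22 calls were kept with every library left out in turn. It was 18 without WT control 1, 8 without jar1-11 control 2 or drought 2, 9 without WT drought 1, 12 without jar1-11 control 1, 13 without WT control 3 and 14 without WT drought 2, and 9 when the 4 groups were fitted alone.

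For JAR1-OE against WT the drought change was more negative in 4 genes and more positive in none (5.02% of all genes were called, 1.51% lower and 3.51% higher). The median difference was -0.36, against 0.01 over all genes, and 137 of the 162 genes had a negative value. The 4 genes were RPP1C (-0.96 ± 0.27), RPL10A (-0.87 ± 0.20), RPS25B (-0.77 ± 0.21) and RPL6A (-0.75 ± 0.19), with adjusted p-values of 0.0196 to 0.0457. RPL10A, which joins the large subunit late in its assembly, had 177, 178 and 184 CPM in JAR1-OE under drought, against 347, 266 and 283 CPM with water, while WT had 257, 244 and 283 CPM under drought, against 193, 274 and 245 CPM. RPL6A showed the same order of groups. Of the mesophyll markers 2 of 5 had a more positive change in JAR1-OE than in WT, and 1 of 5 without WT control 1; their part was not tested. Without JAR1-OE control 1 or WT drought 3, and in a fit of the 4 groups alone, none was called. The count was 3 without WT control 1, 26 without WT control 2, 2 without WT control 3 or JAR1-OE drought 2, and 1 without JAR1-OE control 3, drought 1 or drought 3.

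Between the 2 lines, JAR1-OE minus jar1-11, 20 genes differed, 14 positive and 6 negative (27.2% of all genes were called, 15.8% higher and 11.4% lower). RPP3A had the largest difference (2.11 ± 0.29, adjusted p = 3.35e-05), followed by RPS10A at 1.27 ± 0.19 among the positive ones. RPL10C (-1.32 ± 0.29), RPL10A (-1.03 ± 0.20) and RPL6A (-0.99 ± 0.19) led the negative ones. All 5 mesophyll markers had a more positive change in JAR1-OE (RBCS1A, 2.37, and RCA, 1.47, among them), as did 2 of 8 mitosis markers, and their part was not tested. The median difference was -0.04 and became 0.10 with scaling by library totals alone, where that over all genes was 0.20. The split was 11 and 8 with RLE scaling and 14 and 10 with DESeq2. Without jar1-11 control 2 the count was 11, and it was 12 without jar1-11 drought 2, JAR1-OE control 2 or JAR1-OE drought 2.

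**Figure D4:**
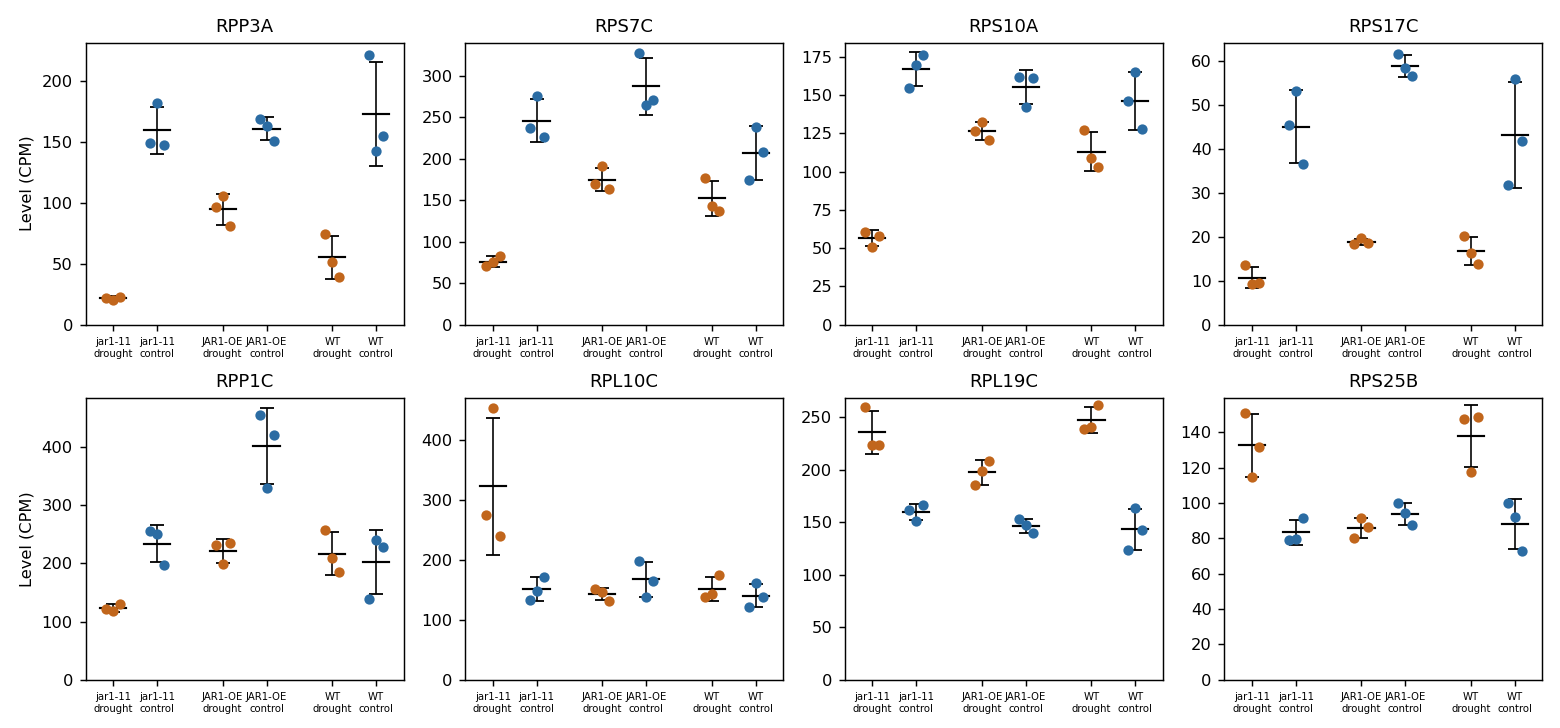
Level in CPM of 8 ribosomal protein genes in every library; points are libraries, bars the group mean and SD, and each axis starts at 0. RPP3A, RPS7C and RPS10A are lowest in jar1-11 under drought, RPL10C is highest there, and RPL19C is higher under drought in all 3 genotypes.

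Under drought itself, some ribosomal protein mRNAs were lower in jar1-11 leaves than in WT leaves. Of the 162 genes 41 were lower and 5 higher, with a median of -0.26, where 30.9% of all genes were called, 16.8% lower and 14.1% higher. The smallest p-values were those of RPS10A (-1.0 ± 0.14, adjusted p = 5.20e-05), RPS7C (-1.0 ± 0.16, adjusted p = 1.37e-04) and RPP3A (-1.35 ± 0.21, adjusted p = 1.54e-04), and in all of them the 3 jar1-11 libraries lay under the 3 WT libraries. RPL10C (1.09 ± 0.21), RPS27A, RPL27AB, RPL6A and RPS11B were the 5 higher. Mesophyll markers summed to 463 to 702 CPM in jar1-11, against 1591 to 2076 CPM in WT, with 5 of 5 lower. Of the flower markers 3 of 5 were lower, and of the mitosis markers 1 of 8. The flower calls rested on WT drought 1, which summed to 34.7 CPM, and without it 0 of 5 were called. WT drought 2 and 3 summed to 0.127 and 0.308 CPM, against 0.601 to 1.34 CPM in jar1-11. The part of all these markers was not tested. The share of ribosomal protein genes called, 28.4%, was near that of all genes, and 131 of the 162 values were negative. With library totals in place of TMM the median was -0.37, where that over all genes was -0.18. The count was 22 without WT drought 1, 31 without WT drought 2, 30 without jar1-11 drought 1 and 19 without jar1-11 drought 2.

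With water, no ribosomal protein gene differed between jar1-11 and WT by edgeR, DESeq2 or limma-voom, and 4 had an unadjusted p under 0.05 by edgeR. The only gene called among all (0.00506%) was JAR1. The median was 0.11, 0.03 without WT control 1 and 0.23 without WT control 2. None of the 162 was called with either library left out.

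With water, some ribosomal protein mRNAs were higher in JAR1-OE leaves than in WT leaves. Of the 162 genes 30 were higher and 1 lower, with a median of 0.33, where 8.94% of all genes were called, 4.35% higher and 4.59% lower. By class 17 of 66 RPS, 11 of 83 RPL and 2 of 13 RPP genes were higher. RPP1C had 455, 329 and 420 CPM in JAR1-OE, against 138, 240 and 228 CPM in WT (0.99 ± 0.19, adjusted p = 0.00466). RPS25E had 610, 462 and 521 CPM, against 280, 377 and 308 CPM (0.72 ± 0.15, adjusted p = 0.00765), and RPS7B 185, 123 and 143 CPM, against 49.8, 98.0 and 91.7 CPM (0.91 ± 0.20, adjusted p = 0.00852). The groups did not overlap in any of these. The calls of RPS25E and RPS7B were lost without JAR1-OE control 1 (0.61 and 0.73) and in a fit of the 2 groups alone, and that of RPP1C was kept with every library left out in turn. RPS9C was the gene that was lower (-0.81 ± 0.21, adjusted p = 0.0245). The count depended on few libraries. It was 1 without JAR1-OE control 1, 5 without JAR1-OE control 3, 11 without WT control 1 and 57 without WT control 2, and 2 in a fit of the 2 groups alone, while the median stayed between 0.26 and 0.45. With library totals it was 14, of which 2 were lower. The 8 mitosis markers summed to 29.5 to 44.6 CPM in JAR1-OE, against 8.33 to 12.01 CPM in WT, with 5 of 8 higher (3 of 8 without WT control 1), and the root gene PYK10 had 3.31 to 12.2 CPM, against 0.327 to 1.33 CPM. Mesophyll markers summed to 10165 to 12351 CPM, against 6097 to 7491 CPM, with 1 of 5 higher. That gene was RBCS1A, which averaged 9611 CPM in JAR1-OE and 4799 CPM in WT. LHCB2.1 (-0.23 ± 0.25) and LHCB2.2 (-0.57 ± 0.33) had values in the other direction that did not pass the test. The part of all these markers was not tested.

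Under drought 2 genes were higher in JAR1-OE than in WT (RPP3A, 0.78 ± 0.20, and RPP2C) and 5 lower (RPS25B, -0.68 ± 0.15, RPL7A, -0.62 ± 0.16, RPL10A, RPS16B and RPL6A), where 13.9% of all genes were called, 8.09% higher and 5.79% lower. The median was -0.03 and 0.01 with the filter of the low genes removed. The call of RPP3A was lost without WT drought 2 (0.77), WT drought 3 (0.62) or JAR1-OE drought 2 (0.69) and in a fit of the 2 groups alone, and that of RPL7A without WT drought 3 (-0.44) or JAR1-OE drought 1 (-0.62). RPS25B was the only 1 of the 7 called with every library left out in turn. RPL7A had 14.2, 14.5 and 14.2 CPM in JAR1-OE, against 18.7, 21.0 and 26.5 CPM in WT. Mesophyll and mitosis markers were higher in JAR1-OE under drought (5 of 5 and 8 of 8). Without JAR1-OE drought 2, 4 of 8 mitosis markers were higher. The mitosis markers had low levels, summing to 18.7 to 33.2 CPM in JAR1-OE and 2.31 to 8.46 CPM in WT. The part of these markers was not tested. The count of ribosomal protein genes called was 1 without WT drought 3, 3 without JAR1-OE drought 1 and 4 without WT drought 2 or JAR1-OE drought 2.

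Paralogues of the same protein were often not called alike. No test compared paralogues with each other, and a gene that was not called can still have changed. Of the 69 protein families 59 had at least 2 tested genes. In jar1-11 every tested gene was lower under drought in 13 of the 59, some were in 39 and none in 7. In JAR1-OE the counts were 14, 40 and 5, and in WT 1, 31 and 27, or 2, 38 and 19 without WT control 1. The families were kept as named, so RPP2 includes RPP2A and RPL3 includes RPL3B, annotated as a plastid protein. RPL3A was lower in all 3 genotypes and RPL3B was called in none, which puts RPL3 among the families with some genes lower. Paralogues moved in opposite directions in RPL19, RPL27A, RPL36, RPS25 and RPS27 in jar1-11, in RPL19 in JAR1-OE, and in RPL19, RPL36 and RPS2 in WT. Without WT control 1 the WT families were RPL19, RPL36, RPS21 and RPS4. The summed mean level of a family was lower under drought in 64 of 69 families in jar1-11, in 69 in JAR1-OE and in 44 in WT, or 56 in WT without WT control 1.

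The families whose make-up moved most were RPP3, RPL36, RPS21 and RPS7. RPP3A gave 10.3% ± 0.927 of the RPP3 reads in jar1-11 under drought and 41.0% ± 3.49 with water (SD, n = 3 each). In JAR1-OE it gave 33.6% ± 5.09 and 36.6% ± 1.96, and in WT 21.4% ± 3.87 and 45.3% ± 13.7, where WT control 1 had 60.6% and the other controls averaged 37.6%. RPP3B gave the rest. In RPL36 the share of RPL36B was 68.4% in jar1-11 under drought and 46.6% with water, 56.9% and 49.8% in JAR1-OE, and 60.7% and 42.0% in WT. RPL36A gave up the most in jar1-11 and WT, at 12.8% under drought and 26.6% with water in jar1-11 and at 14.9% and 29.8% in WT, and RPL36C gave the remainder. RPS21B gave 36.1% of RPS21 reads in jar1-11 under drought and 52.8% with water, 33.9% and 51.8% in JAR1-OE, and 28.4% and 44.8% in WT, and RPS21C gave the rest. RPS7C gave 37.1% of RPS7 reads in jar1-11 under drought and 60.6% with water, 53.4% and 57.0% in JAR1-OE, and 51.5% and 60.0% in WT. Neither RPS7A (47.2, 55.0 and 61.8 CPM, against 62.4, 65.3 and 67.1 CPM) nor RPS7B passed the test in jar1-11. The 3 RPS7 genes differ in the elements printed above, with none in RPS7A and a telo box in RPS7C only.

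**Figure D5:**
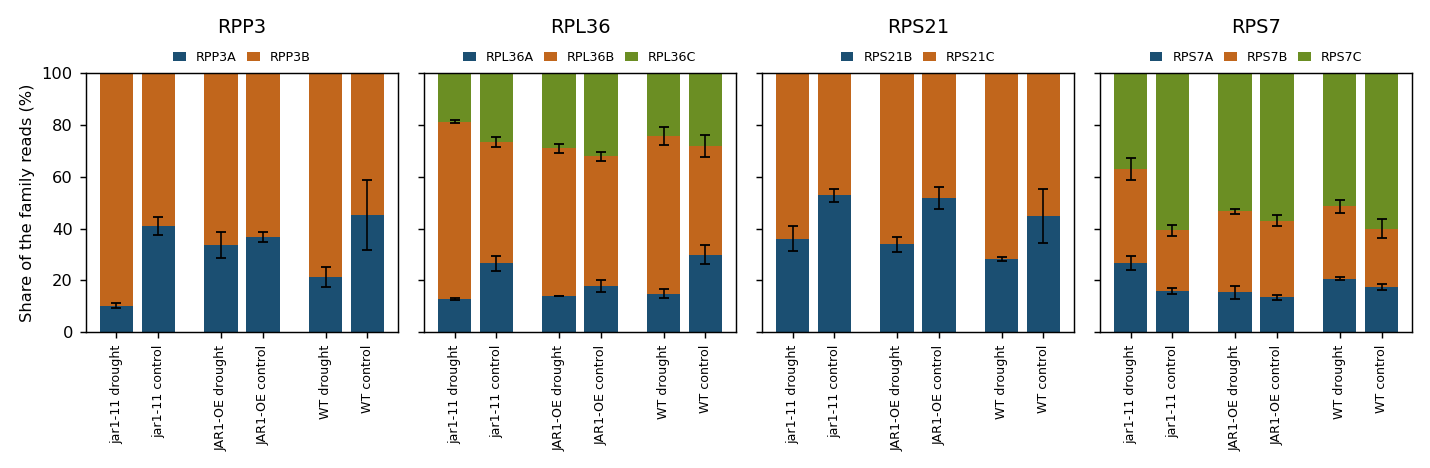
Share of a family's reads taken by each paralogue, as group means of 3 libraries; an error bar is the SD of the segment under it. RPP3A has 10.3% of RPP3 reads in jar1-11 under drought and 41.0% in its controls, and RPS7C has 37.1% and 60.6% of RPS7 reads.

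RPP3A had the smallest p-value under drought in WT. The genes whose log2(CPM + 2) ran most like it over the 18 libraries were RPL10AA (Pearson r 0.953), RPS16A (0.951) and RPL22C (0.948). All of them were lower under drought in the 3 genotypes, and the libraries share their grouping.

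Other genes of ribosome production and use were described by counts from the same fit, to be read beside the 53.5% of all genes called under drought in jar1-11, 26% in JAR1-OE and 35.4% in WT. Of 25 ribosome biogenesis genes 9 were lower and 4 higher under drought in jar1-11 (median -0.26), 2 lower and 0 higher in JAR1-OE (-0.01), and 6 lower and 1 higher in WT (-0.17), or 7 and 1 without WT control 1. In jar1-11 the part called was near that of all genes. FIB2, a fibrillarin that methylates ribosomal RNA, was lower in jar1-11 (-1.69 ± 0.33), JAR1-OE (-1.57 ± 0.33) and WT (-1.27 ± 0.32). REIL1, which acts late on the large subunit, was higher in jar1-11 (0.99 ± 0.15) and WT (0.68 ± 0.15). With water, 10 of the 25 were lower in JAR1-OE than in WT and none higher (median -0.43), where 8.94% of all genes were called. Without WT control 1 it was 5 of the 25, and without JAR1-OE control 3 it was 3. SWA2 (-1.51 ± 0.25) and NOP56 (-1.29 ± 0.21) were among them, and changed by -0.98 and -0.92 without WT control 1, both still called. The ribosomal protein genes had a median of 0.33 in that comparison.

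Nuclear genes for plastid ribosomal proteins were lower in most cases in both lines. Of 26, 20 were lower under drought in jar1-11 (median -0.92), 21 in JAR1-OE (-0.63) and 9 in WT (-0.24), and none was higher. The WT count was near the part of all genes called in either direction, but all 9 were lower, where 18.8% of all genes were. Without WT control 1 the WT count was 7. The JAR1-OE count was 10 without JAR1-OE control 1. With water 19 were higher in JAR1-OE than in WT and none lower (0.77), or 21 without WT control 1 and 10 without JAR1-OE control 1. PRPL4 changed under drought by -2.17 ± 0.22 in jar1-11, -0.66 ± 0.20 in JAR1-OE and -1.01 ± 0.21 in WT. Of 20 initiation factor genes 7 were higher and 3 lower under drought in jar1-11 (median 0.01), 2 and 3 in JAR1-OE (-0.16), and 3 and 2 in WT (0.00), the same counts as without WT control 1. The part called was near that of all genes in jar1-11 and JAR1-OE. Without jar1-11 control 3 it was 4 and 1 in jar1-11. EIF5A3, a factor that helps ribosomes past stalls, rose in jar1-11 (1.96 ± 0.19), JAR1-OE (0.72 ± 0.19) and WT (1.68 ± 0.19). Of 11 elongation factor genes 4 were lower in jar1-11 and 4 in JAR1-OE with none higher, and 2 were higher in WT with none lower, or 4 higher and 2 lower without WT control 1. Among 10 genes of TOR and SnRK1 signalling, 6 were higher and 0 lower in jar1-11, 1 and 0 in JAR1-OE, and 1 and 1 in WT, or 2 and 0 without WT control 1. In jar1-11 the part called in either direction was near that of all genes, but all 6 were higher, where 25.9% of all genes were. The 6 were LST8-1, S6K1, S6K2, TAP46 and the SnRK1 genes KIN10 and KIN11. TOR itself (0.19 ± 0.15), RAPTOR1A, RAPTOR1B and YAK1 did not pass the test in jar1-11. S6K2, a kinase of the RPS6 protein, rose by 2.36 ± 0.22 in jar1-11 and by 0.90 ± 0.23 in JAR1-OE. In WT its value was 0.57 ± 0.22, just short of the threshold (adjusted p = 0.0520).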

How the data were processed

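The files hold counts of uniquely assigned reads per gene for each of 18 libraries, deposited by the authors as raw counts, with a gene length beside each. Per the labels' protocols, total RNA from whole rosettes was made into 3′ mRNA libraries and sequenced as single reads. The aligner, counter, strand setting and genome build were not given in the sources used here. Of 27655 genes 27445 were matched by locus to TAIR10.1, 27444 with the same length.

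The genes and the comparison lists were chosen with earlier results of these data known. Genes with at least 20 reads over the 18 libraries (19752) were fitted with edgeR 4.0.16 in R 4.3.3 (TMM scaling, quasi-likelihood F-test), with 6 group means sharing 1 estimate of the spread (common biological coefficient of variation 20.1%). Standard errors were taken from the F statistic, as the absolute log2 change over its root. P-values were adjusted by Benjamini-Hochberg over all genes, with a threshold of 0.05, and the procedure was tested on simulated counts. The 10 contrasts were drought against control per genotype, each line against WT per condition, and the 3 differences of drought response. Alternatives were other scalings, DESeq2 1.42.0, limma-voom 3.58.1, other filters, a replicate block, the compared groups alone, and leaving out each library.

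Genes are named by rule: per drought contrast the 4 largest rises and falls of at least 10 CPM, per other contrast the 3 smallest p-values, the 3 highest levels, the 4 families whose make-up moved most, and the 3 genes most like the one with the smallest drought p in WT. Other genes in the text are all members of a short count or were chosen after their values were seen. Intervals of 1 read or none cover counting error only.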

Additional observations from a re-analysis of the deposited data

Results flagged for a closer look

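The drought response differed between genotypes, by the interaction test at the threshold of 0.05, in the ribosomal protein genes listed here, among others. Only genes named by rule are listed. In all, 22 of the 162 genes (13.6%) were called for jar1-11 minus WT, where 13.7% of all genes were. For JAR1-OE minus WT it was 4 (2.47%, against 5.02% of all genes). For JAR1-OE minus jar1-11 it was 20 (12.3%, against 27.2% of all genes). With every library left out in turn, 8, 0 and 10 of these calls were kept. Values are differences of log2 fold changes. Between jar1-11 and WT (jar1-11 minus WT) the difference was -1.34 for RPS11C, -1.25 for RPS7C, -1.23 for RPP3A, -1.19 for RPS10A, -1.02 for RPP1C, -0.69 for RPL10AA, -0.67 for RPS25E and 0.98 for RPL10C. Between JAR1-OE and WT (JAR1-OE minus WT) it was -0.96 for RPP1C, -0.87 for RPL10A, -0.77 for RPS25B and -0.75 for RPL6A. Between JAR1-OE and jar1-11 (JAR1-OE minus jar1-11) it was 2.11 for RPP3A, 1.27 for RPS10A, 0.98 for RPS7C, 0.84 for RPS2A, 0.82 for RPS11C, 0.62 for RPL10AA and 0.51 for RPL22C, and it was -0.58 for RPL36B, -0.80 for RPS25B, -0.99 for RPL6A, -1.03 for RPL10A and -1.32 for RPL10C. A signal outside the main measurement was the YFP-JAR1 entry, with 26 to 558 reads in the JAR1-OE libraries and 0 reads in the others.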

How the results depend on the processing

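Of 40 single-gene results 31 kept their call and direction in every alternative run and 9 lost the call in at least 1, and none reversed. Counts of ribosomal protein genes past the threshold changed more. When only the compared groups were fitted, the counts were 25 for drought in WT, 2 for JAR1-OE against WT with water, 4 for the same lines under drought, 9 for the drought response of jar1-11 minus WT and 0 for that of JAR1-OE minus WT. DESeq2 gave 57, 11 and 24 for JAR1-OE against WT with water, under drought and in the drought response, limma-voom gave 10 for the last, and library totals gave 14 for the first. A fit of the compared groups alone has fewer libraries to estimate the spread. The share of all genes called in each alternative run is not given here. From these counts a change in the ribosomal protein genes alone cannot be told apart from a change over all genes. The cause of the changed counts was not tested. Leaving out 1 library gave 81 to 90 calls for drought in jar1-11, 56 to 89 in JAR1-OE and 33 to 59 in WT. It gave 0 to 0 for jar1-11 against WT with water, 19 to 36 under drought, 1 to 57 for JAR1-OE against WT with water and 1 to 9 under drought. For the differences of drought response it gave 8 to 28 (jar1-11 minus WT), 0 to 26 (JAR1-OE minus WT) and 11 to 18 (JAR1-OE minus jar1-11). Replicate numbers did not pair the samples: over 15 pairs of groups same-numbered libraries had correlations of -0.314 to 0.203, and no pair of groups had all over 0.1. With every library left out in turn, the calls kept throughout were 77 of 97 for drought in jar1-11, 54 of 91 in JAR1-OE and 28 of 50 in WT, 18 of 46 for jar1-11 against WT under drought, 1 of 31 and 1 of 7 for JAR1-OE against WT with water and under drought, and 8 of 22, 0 of 4 and 10 of 20 for the differences of drought response. With a replicate block the counts were 95 for drought in jar1-11, 87 in JAR1-OE and 44 in WT, 40 for jar1-11 against WT under drought, 21 and 7 for JAR1-OE against WT with water and under drought, and 16, 2 and 16 for the 3 differences. The depth limits genes of few reads: 9 tested genes lay under 10 CPM.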
